A study of Mus musculus with 6 samples.

Results

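Messenger RNA of 10 genes of mitochondrial fatty acid oxidation was examined in liver, with 3 WT mice compared with 3 *Sirt7* KO mice. The genes were *Cpt1a*, *Slc25a20* and *Cpt2* of the carnitine shuttle, *Acadvl*, *Acadl*, *Acadm*, *Hadha*, *Hadhb* and *Acaa2* of the oxidation cycle in the matrix, and *Etfdh*, which passes electrons from the cycle to the respiratory chain. They were chosen by name as a pathway, and all 10 of 10 were among the 54115 genes of the annotation and among the 12524 with enough reads to be tested. All mice were males aged 24 months and fasted for 16 h. The methods of the study describe *Sirt7* KO mice backcrossed to C57BL/6J and WT littermates from heterozygous crosses. The knockout is constitutive, so every cell type of the liver carried it. No fed and no young liver was among these 6 samples.

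Fasting sends fatty acids from adipose tissue to the liver, which burns them in mitochondria and exports ketone bodies. A long-chain fatty acid is joined to coenzyme A, moved onto carnitine at the outer membrane by CPT1A, carried through the inner membrane by the translocase SLC25A20 and returned to coenzyme A by CPT2. Inside, each turn of beta-oxidation removes an acetyl group through an acyl-CoA dehydrogenase, a hydratase, a hydroxyacyl-CoA dehydrogenase and a thiolase. VLCAD (*Acadvl*), LCAD (*Acadl*) and MCAD (*Acadm*) take acyl chains of falling length, and the trifunctional protein, built from HADHA and HADHB, holds the later steps for long chains. Many of these genes are known targets of PPARalpha, a nuclear receptor activated by fatty acids that pairs with RXR.

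*Hadha* and *Hadhb* encode the subunits of one protein complex and lie head to head on chromosome 5. In the GENCODE M21 annotation of GRCm38, *Hadha* runs from 30118304 to 30155162 on the minus strand and *Hadhb* from 30155248 to 30184593 on the plus strand, so their outermost starts are 86 bases apart. The *Hadha* form with the most reads, ENSMUST00000026843.11, starts further inside the gene, at 30154976, and the RefSeq starts of *Hadha* and *Hadhb* are 273 bases apart. The 85 bases between the outermost starts, at chr5:30155163-30155247 on the plus strand, are shown because these annotated starts lie at their edges.
*Hadha*/*Hadhb*: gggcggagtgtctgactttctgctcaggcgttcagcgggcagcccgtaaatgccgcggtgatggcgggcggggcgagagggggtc

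Stretches before the starts of other genes are shown because these genes were measured side by side and nuclear receptors of the PPAR and RXR family read the hexamer AGGTCA. Of the 9 promoter windows described below, all 3 that held the hexamer are included, so the display favours matches. All are RefSeq promoter sequences of GRCm38.p6, given 5′ to 3′ on the strand of the gene, without bases that a GENCODE exon covers, and capitals mark the hexamer or its reverse complement. The first 3 are the acyl-CoA dehydrogenases *Acadm* (chr3:153944644-153944893, minus strand), *Acadvl* (chr11:70015429-70015678, minus strand) and *Acadl* (chr1:66863310-66863559, minus strand), and the last is *Cpt1a* (chr19:3323051-3323284, plus strand).
*Acadm*: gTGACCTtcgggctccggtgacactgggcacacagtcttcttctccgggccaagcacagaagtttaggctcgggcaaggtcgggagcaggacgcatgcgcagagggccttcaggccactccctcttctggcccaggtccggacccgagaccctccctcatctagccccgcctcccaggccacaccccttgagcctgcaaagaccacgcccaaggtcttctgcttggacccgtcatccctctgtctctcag
*Acadvl*: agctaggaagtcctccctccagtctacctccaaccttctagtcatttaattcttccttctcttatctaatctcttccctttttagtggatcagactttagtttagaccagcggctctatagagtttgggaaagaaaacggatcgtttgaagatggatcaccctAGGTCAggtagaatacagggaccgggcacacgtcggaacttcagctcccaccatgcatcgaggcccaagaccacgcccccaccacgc
*Acadl*: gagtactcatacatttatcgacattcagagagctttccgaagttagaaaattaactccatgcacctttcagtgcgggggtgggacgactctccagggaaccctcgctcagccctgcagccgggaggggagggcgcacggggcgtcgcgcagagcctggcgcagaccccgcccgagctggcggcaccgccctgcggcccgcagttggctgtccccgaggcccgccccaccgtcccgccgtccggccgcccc
*Cpt1a*: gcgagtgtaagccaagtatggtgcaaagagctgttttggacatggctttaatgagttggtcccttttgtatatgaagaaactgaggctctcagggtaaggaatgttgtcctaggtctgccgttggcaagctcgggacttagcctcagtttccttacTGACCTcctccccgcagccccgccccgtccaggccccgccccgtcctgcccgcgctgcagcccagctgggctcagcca

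RefSeq promoter windows, of 250 bases before and 50 after a start, were at hand for 9 of the 10 genes, all but *Acaa2*. The hexamer AGGTCA, searched on both strands, lay in 3 of these 9 windows (*Acadm*, *Acadvl* and *Cpt1a*), and 16.3% of all 32851 windows held it. It lay 249 bases before the start of *Acadm*, 87 before that of *Acadvl* and 94 before that of *Cpt1a*. The extended form TNAAGGTCA, which contains AGGTCA, was in 0 of the 9 windows and in 1.28% of all windows. The direct repeat AGGTCANAGGTCA, known as DR1 and made of a pair of hexamers, was in 0 of the 9 and in 0.0396% of all windows. With up to 2 mismatches it was in 1 of the 9, as AGGTGAAAGGTCG 6 bases after the start of *Slc25a20*, and in 3.86% of all windows. The windows of the 9 genes held 9 to 34 CpG dinucleotides (median 17), and the median over all windows was 7.

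The targeted gene was examined first. The full-length *Sirt7* transcript held 429, 381 and 408 estimated reads in the WT livers and 124, 135 and 77.5 in the *Sirt7* KO livers, with no overlap and fewer in the livers labelled KO. The whole gene differed less, at 55.2, 45.5 and 47.3 CPM in WT and at 28.6, 41.7 and 40.8 CPM in *Sirt7* KO livers, and its TPM went the other way, at 34.4, 28.3 and 27.3 and at 34.7, 49.9 and 68.0. A pair of coding transcripts also held more reads in the *Sirt7* KO livers. ENSMUST00000106183.2 held 2.12, 5.12 and 0 reads in WT and 50.5, 54.1 and 93.3 in *Sirt7* KO livers, and ENSMUST00000146809.1 held 43.0, 0 and 65.3 and then 83.5, 119 and 192. The full-length form and the CPM of the gene were thus lower in the livers labelled KO. The TPM and these transcripts were higher in them, also with no overlap between the genotypes. The source of the reads on these transcripts was not tested. Each liver gave between 9994860 and 13424776 reads assigned to transcripts. Transcripts of the mitochondrial genome held 2.37% to 2.68% of the reads in WT livers and 3.17%, 1.93% and 1.65% in the *Sirt7* KO livers. The summed CPM of 8 hepatocyte markers was 65101 to 71440 in WT and 67764 to 81128 in *Sirt7* KO livers, and none of them was at 0. Of the 8 other marker lists, those for striated muscle and adipocytes summed to 3.48 CPM at most, with *Ckm*, *Acta1* and *Tnnt3* at 0 reads. Summed Kupffer cell markers (7 genes) ran from 54.1 to 157 CPM in WT and from 49.6 to 139 in *Sirt7* KO livers, those of endothelial cells (7) from 76.5 to 97.0 and from 82.1 to 117, of stellate cells (7) from 170.2 to 211 and from 138 to 216, of cholangiocytes (5) from 47.3 to 72.7 and from 53.4 to 71.0, and of lymphocytes (7) from 4.45 to 10.6 and from 3.92 to 10.4. Erythroid markers (5) ran from 374 to 546 and from 446 to 915, and 1 of them was higher at an unadjusted p-value under 0.05.

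The 10 genes are among the abundant transcripts of the liver. Levels of different genes were compared in TPM, which takes transcript length into account. In WT livers the mean ran from 55.0 ± 7.34 TPM (SD, n = 3) for *Cpt1a* to 1432 ± 195 TPM (SD, n = 3) for *Acaa2*, which placed the genes between percentiles 87.8 and 99.3 of the tested genes. *Acaa2*, the thiolase of the matrix, was followed by *Acadvl* (382 TPM), *Acadm* (328), *Hadhb* (249), *Acadl* (157), *Hadha* (144), *Etfdh* (143), *Slc25a20* (121), *Cpt2* (112) and *Cpt1a*. Neighbours in this order whose 3 WT livers did not overlap were *Acaa2* and *Acadvl*, *Hadhb* and *Acadl*, and *Cpt2* and *Cpt1a*. The other 6 neighbouring pairs did not differ beyond the spread of the livers. *Cpt1a*, whose product controls the entry of long chains, thus had the lowest level of the 10 per length. The means of the other shuttle genes, *Slc25a20* and *Cpt2*, came next, but their WT livers overlapped those of *Etfdh* and *Hadha*. The *Hadha* level also included 68.5, 76.3 and 61.1 TPM in WT on ENSMUST00000132486.1. This 323-base transcript held 2.45% to 2.97% of the *Hadha* reads in WT. The *Hadha* form with the most reads held 47.2, 69.5 and 55.4 TPM in WT, and the coding form held 13.5, 14.9 and 12.2. The place of *Hadha* above *Slc25a20* and *Cpt2* thus rests on the short transcript. Short transcripts add to the TPM of other genes too, as in *Acaa2*, with 194, 328 and 327 TPM in WT on the 504-base ENSMUST00000237306.1. The order in *Sirt7* KO livers was the same except that *Etfdh* (106 TPM) stood before *Hadha* (84.4) and *Cpt2* (81.9) before *Slc25a20* (74.3).

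**Figure D1:**
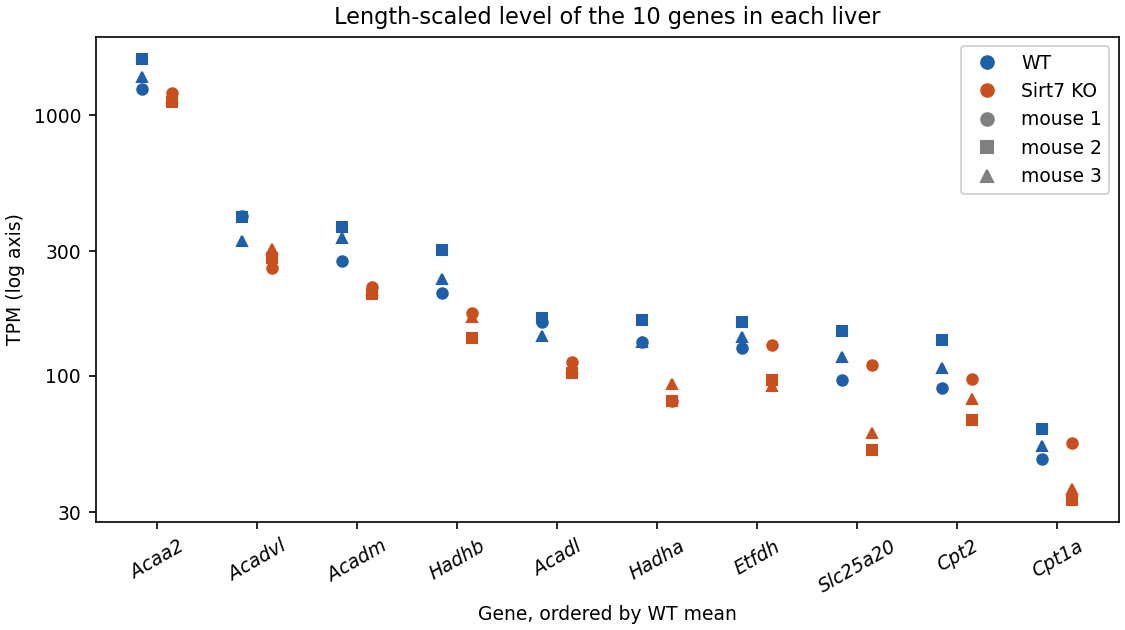
TPM on a log axis for the 10 genes, ordered by the WT mean, with 1 symbol per liver (blue, WT; orange, *Sirt7* KO; the shape gives the mouse number, which does not pair mice). *Acaa2* lies far above the other genes, between 1117 and 1643 TPM, and *Cpt1a* lies lowest, between 33.4 and 62.7 TPM.

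Whether the genotype was accompanied by a difference in these genes was then asked. Expression was given as CPM, read counts divided by library size after TMM scaling, and tested by edgeR's quasi-likelihood test over all 12524 genes. All 10 genes had a log2 fold change (*Sirt7* KO over WT, with its standard error, SE, where given) below 0, from -0.21 for *Acaa2* to -0.64 for *Slc25a20*, which is a level lower by 13.6% in the former and by 36.05% in the latter. The median was -0.45, and that of all tested genes was -0.01. None of the 10 reached the call, a fold change over 1.5 at an adjusted p-value under 0.05, which 0.00798% of the tested genes (1 gene) reached. The authors tested these livers with another tool, DESeq2 after tximport, and report far more differentially expressed genes. Fits with DESeq2 are given below as alternatives. At an unadjusted p-value under 0.05, 5 of the 10 were lower (*Acadm*, *Acadl*, *Acadvl*, *Hadha* and *Hadhb*) and 0 were higher, against 4.78% of all tested genes lower and 6.54% higher. In 4 of the 10 every *Sirt7* KO liver was below every WT liver, against 8.09% of all tested genes, and in 0 of the 10 every *Sirt7* KO liver was above, against 8.74%. In whole liver, fewer cells of a type and less RNA per cell cannot be told apart.

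The count of 5 depended on which mice were included. It was 2 (*Acadm* and *Acadl*) without WT mouse 2, and also 2, of the same genes, without *Sirt7* KO mouse 2 or without *Sirt7* KO mouse 3. It was 8 without *Sirt7* KO mouse 1, when *Cpt1a*, *Cpt2*, *Slc25a20* and *Etfdh* entered and *Acadvl* left.

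**Figure D2:**
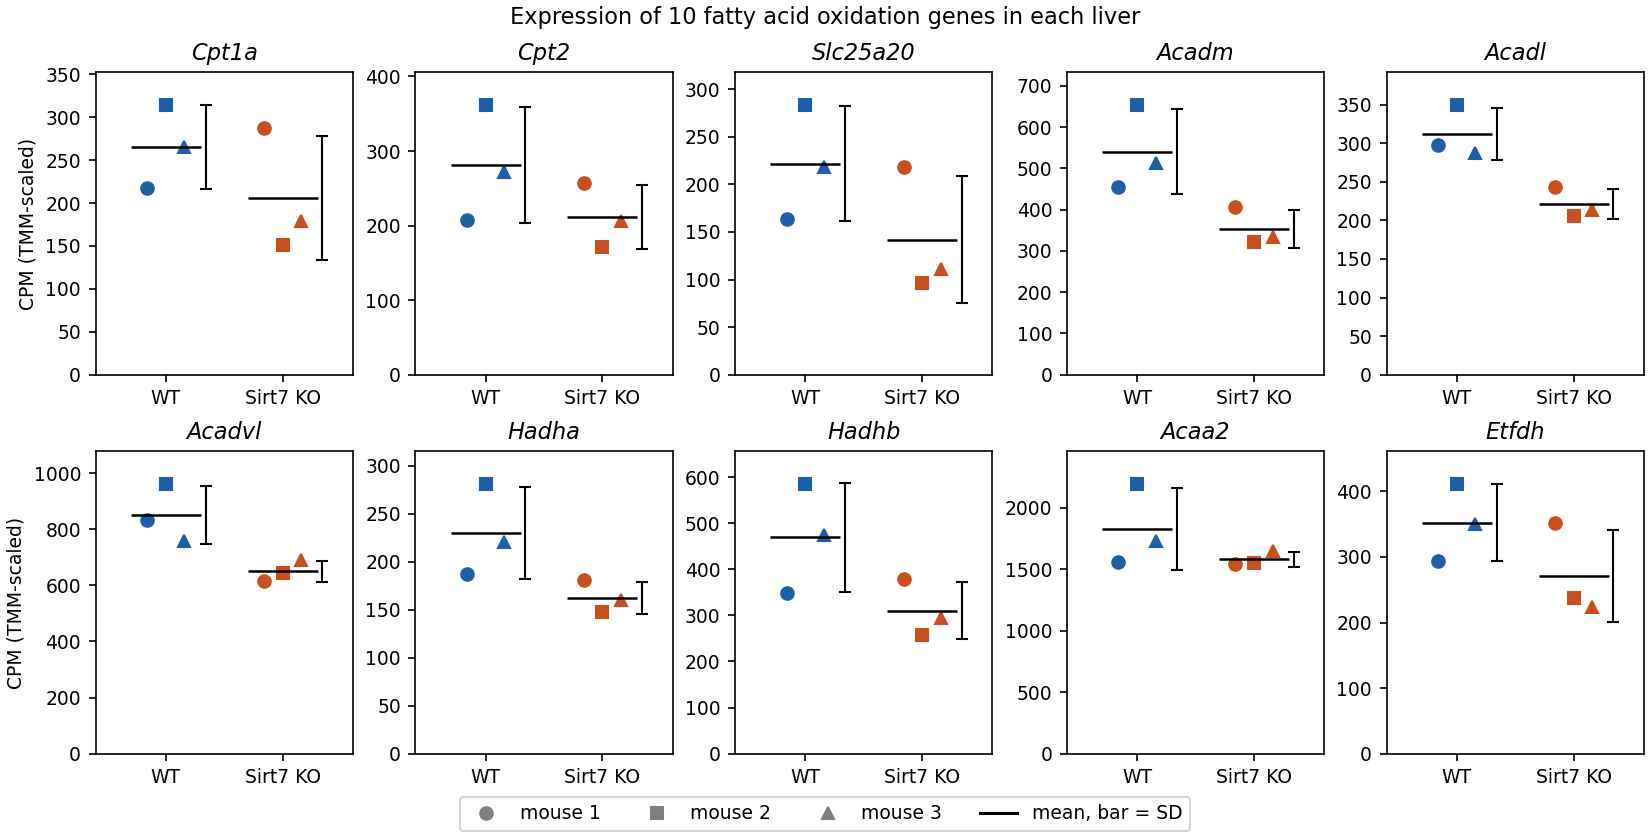
TMM-scaled CPM of the 10 genes in each liver, with each vertical axis starting at 0 (blue, WT; orange, *Sirt7* KO; line, mean; bar, SD; n = 3 mice per genotype). The genotypes are apart in *Acadm*, *Acadl*, *Acadvl* and *Hadha* and overlap in the other 6 genes.

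The acyl-CoA dehydrogenases carry out the first step of each turn. All 3 of them were lower at an unadjusted p-value under 0.05, and in all 3 the genotypes did not overlap. *Acadm* (chromosome 3, 153922357 to 153944632), the medium-chain enzyme, was at 456, 655 and 512 CPM in WT and at 407, 321 and 334 CPM in *Sirt7* KO livers. The highest *Sirt7* KO liver thus lay just under the lowest WT liver, mouse 1 in both genotypes. The means were 541 ± 103 and 354 ± 46.3 CPM (SD, n = 3 each), and the log2 fold change was -0.61 ± 0.18 (SE, adjusted p = 0.25 in the quasi-likelihood test of edgeR).

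*Acadl* (chromosome 1, 66830839 to 66863277), the long-chain enzyme, had the tightest groups of the 10 genes beside *Acadvl*. It was at 297, 350 and 288 CPM in WT and at 243, 206 and 213 CPM in *Sirt7* KO livers, with means of 312 ± 33.5 and 221 ± 19.7 CPM (SD, n = 3 each). Its log2 fold change was -0.50 ± 0.15 (SE, adjusted p = 0.25 from edgeR). *Acadl* and *Acadm* were the genes that kept an unadjusted p-value under 0.05 with each of the 6 mice left out in turn. For *Acadl* the log2 fold change then ran from -0.57 to -0.40, and for *Acadm* from -0.73 to -0.45.

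*Acadvl* (chromosome 11, 70010183 to 70015411), the very-long-chain enzyme bound to the inner membrane, was at 833, 963 and 760 CPM in WT and at 615, 645 and 691 CPM in *Sirt7* KO livers. It differed from the other dehydrogenases in that *Sirt7* KO mouse 1 was the lowest liver and not the highest of its genotype. The means were 852 ± 103 and 650 ± 38.2 CPM (SD, n = 3 each), and the log2 fold change was -0.39 ± 0.15 (SE, adjusted p = 0.39 from edgeR). Of the 31-base words of *Acadvl*, 33.2% also occur in *Dvl2*, a gene on the opposite strand that overlaps its end, and the counting is not stated to use strand. Salmon gave *Dvl2* between 48.6 and 118 reads per liver and *Acadvl* between 6086 and 10611. The part of *Dvl2* RNA in the *Acadvl* reads was not tested.

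The trifunctional protein carries out the hydratase and hydroxyacyl-CoA dehydrogenase steps in HADHA and the thiolase step in HADHB. Both subunit genes were lower at an unadjusted p-value under 0.05. *Hadha* was at 188, 282 and 221 CPM in WT and at 181, 148 and 160 CPM in *Sirt7* KO livers, so the gap between the genotypes was narrow. The means were 230.1 ± 47.5 and 163 ± 16.7 CPM (SD, n = 3 each), with a log2 fold change of -0.50 ± 0.18 (SE, adjusted p = 0.34 from edgeR). Without WT mouse 2 the log2 fold change was -0.33. In TPM the gap was wider, with 135, 163 and 135 TPM in WT and 80.2, 80.3 and 92.7 TPM in *Sirt7* KO livers. A 323-base transcript, ENSMUST00000132486.1, held 1.41% to 2.97% of the *Hadha* reads. It made up 68.5, 76.3 and 61.1 of these TPM in WT and 26.9, 28.6 and 34.6 in *Sirt7* KO livers. *Hadha* was also the one gene of the 10 that DESeq2 with transcript length offsets called, with a log2 fold change of -0.72 (adjusted p = 0.032 from DESeq2), a setting that called 1.93% of the genes it tested. The length offsets are weighted by the same TPM, and the part of this short transcript in the call was not tested.

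*Hadhb* was at 348, 586 and 474 CPM in WT and at 378, 257 and 295 CPM in *Sirt7* KO livers. *Sirt7* KO mouse 1 lay above WT mouse 1, so the genotypes overlapped. The means were 469 ± 119 and 310 ± 62.2 CPM (SD, n = 3 each), and the log2 fold change was -0.60 ± 0.22 (SE, adjusted p = 0.36 from edgeR). Of the 31-base words of *Hadhb*, 23.7% also occur elsewhere, most of them in the processed pseudogene *Gm13910*, to which 0 reads were assigned in any liver. Across the 6 livers *Hadha* and *Hadhb* were highest in WT mouse 2 and lowest in *Sirt7* KO mouse 2.

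*Acaa2* (chromosome 18, 74779197 to 74806208), the thiolase that ends the turn for shorter chains, had the smallest difference of the 10. It was at 1556, 2198 and 1735 CPM in WT and at 1541, 1553 and 1648 CPM in *Sirt7* KO livers. WT mouse 2 stood apart from the other 5 livers, and WT mouse 1 lay among the *Sirt7* KO livers. The means were 1830 ± 331 and 1581 ± 58.7 CPM (SD, n = 3 each), and the log2 fold change of -0.21 had a 95% interval from -0.61 to 0.19 (adjusted p = 0.71 from edgeR). Without WT mouse 2 it was -0.06, and without WT mouse 1 it was -0.32.

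The carnitine shuttle overlapped between genotypes in all 3 genes. *Cpt1a* (chromosome 19, 3322334 to 3385733) was at 217, 315 and 265 CPM in WT and at 288, 151 and 179 CPM in *Sirt7* KO livers. *Sirt7* KO mouse 1 was the second highest of the 6 livers, while the other *Sirt7* KO mice were the lowest. The means were 265 ± 48.8 and 206 ± 72.2 CPM (SD, n = 3 each), with a log2 fold change of -0.37 (95% interval -0.93 to 0.20, adjusted p = 0.63 from edgeR). Single mice moved this value both ways, to -0.68 without *Sirt7* KO mouse 1, to -0.19 without *Sirt7* KO mouse 2 and to -0.23 without WT mouse 2.

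*Slc25a20* (chromosome 9, 108662088 to 108684641), the translocase, had the largest log2 fold change of the 10 and also the largest spread within genotypes. It was at 163, 284 and 219 CPM in WT and at 218, 96.4 and 111 CPM in *Sirt7* KO livers. *Sirt7* KO mouse 1 was at the level of WT mouse 3, and the other *Sirt7* KO livers were below every WT liver. The means were 222 ± 60.4 and 142 ± 66.6 CPM (SD, n = 3 each), and the log2 fold change of -0.64 had a 95% interval from -1.37 to 0.08 (adjusted p = 0.50 from edgeR). Without *Sirt7* KO mouse 1 it was -1.10, and without WT mouse 2 it was -0.43. When genes with few reads were kept in the fit, it was the one gene of the 10 that was called (adjusted p = 0.040 from edgeR), in a fit that called 2.27% of 27881 genes.

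*Cpt2* (chromosome 4, 107903981 to 107923610) was at 208, 362 and 272 CPM in WT and at 257, 172 and 207 CPM in *Sirt7* KO livers. *Sirt7* KO mouse 3 lay at the level of WT mouse 1, and *Sirt7* KO mouse 1 above it. The log2 fold change was -0.41 (95% interval -0.93 to 0.12, adjusted p = 0.56 from edgeR), and it was -0.18 without WT mouse 2 and -0.28 without *Sirt7* KO mouse 2. *Etfdh* (chromosome 3, 79603788 to 79629500), the oxidoreductase of the inner membrane that hands electrons of the dehydrogenases to ubiquinone, was at 294, 412 and 351 CPM in WT and at 352, 238 and 224 CPM in *Sirt7* KO livers. *Sirt7* KO mouse 1 again lay among the WT livers. The log2 fold change was -0.38 (95% interval -0.86 to 0.10, adjusted p = 0.55 from edgeR). It was -0.61 without *Sirt7* KO mouse 1 and -0.25 without WT mouse 2.

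As single values, none of the 10 genes could pass a two-sided exact permutation test, since 3 mice against 3 allow no p below 0.1. *Acadm*, *Acadl*, *Acadvl* and *Hadha* reached that smallest p of 0.1 on log2(CPM + 0.5), and the exact permutation p was 0.2 for *Cpt2*, *Slc25a20*, *Hadhb* and *Acaa2* and 0.3 for *Cpt1a* and *Etfdh*.

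The livers ranked much alike from gene to gene. WT mouse 2 was the highest of the 6 livers in all 10 genes, and *Sirt7* KO mouse 2 was the lowest in 7. How often these livers ranked so over all tested genes was not counted. The 10 genes summed to 4560, 6405 and 5096 CPM in WT and to 4481, 3787 and 4061 CPM in *Sirt7* KO livers, so that the sums did not overlap, though *Sirt7* KO mouse 1 lay close to WT mouse 1. *Acaa2* contributes the most reads to this sum. With equal weight to each gene, the mean deviation from the average liver on the log2(CPM + 0.5) scale was -0.02, 0.52 and 0.20 in WT and 0.03, -0.43 and -0.30 in *Sirt7* KO livers, and the genotypes overlapped.

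The position of *Sirt7* KO mouse 1 varied from gene to gene. For *Cpt1a*, *Slc25a20*, *Cpt2* and *Etfdh* together its mean deviation was 0.25 (-0.09, 0.56 and 0.24 in WT, -0.56 and -0.40 in the other *Sirt7* KO livers). For the 6 matrix enzymes it was -0.11, with 0.03, 0.49 and 0.16 in WT and -0.34 and -0.24 in the other *Sirt7* KO livers, and here the genotypes did not overlap. This grouping was formed after the values were seen, and it was not tested. On the log2 scale *Sirt7* KO mouse 1 lay above the mean of *Sirt7* KO mice 2 and 3 by 1.07 in *Slc25a20*, by 0.80 in *Cpt1a*, by 0.61 in *Etfdh*, by 0.46 in *Hadhb*, by 0.45 in *Cpt2*, by 0.31 in *Acadm*, by 0.23 in *Hadha* and by 0.21 in *Acadl*, and its difference was -0.05 in *Acaa2* and -0.12 in *Acadvl*, against a median of 0.01 over all tested genes. *Hadhb*, a matrix enzyme, and *Cpt2*, of the shuttle, thus had nearly the same value, and the groups were not cleanly split. *Sirt7* KO mouse 1 was below every WT liver in 5 of the 10 genes, while *Sirt7* KO mouse 2 was so in 10 and *Sirt7* KO mouse 3 in 9. The same counts over all tested genes were not made for single livers, so these have no background. *Sirt7* KO mouse 1 also had the highest share of mitochondrial genome reads given above, and the part of that share in these values was not tested.

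**Figure D3:**
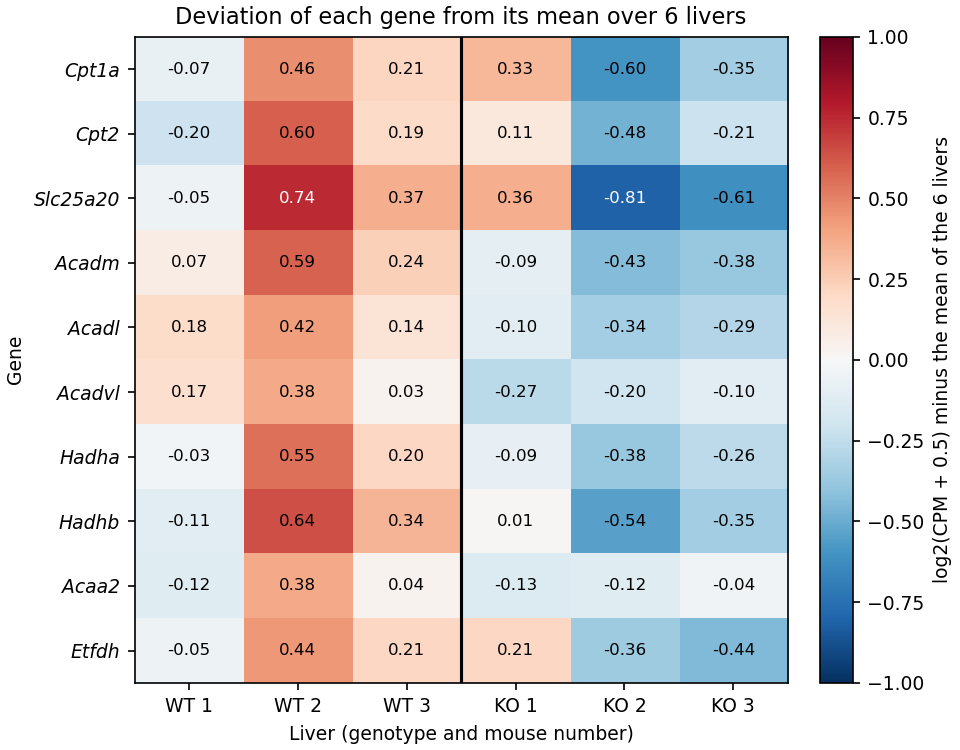
Deviation of each gene from its mean over the 6 livers, on the log2(CPM + 0.5) scale (red, above the mean; blue, below; columns, livers; rows, genes). WT mouse 2 is the highest column in every row, and *Sirt7* KO mouse 1 runs from 0.36 in *Slc25a20* to -0.27 in *Acadvl*.

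The spread within genotypes differed among the genes. The within-genotype SD on the log2 scale was 0.14 for *Acadvl* and *Acadl*, 0.18 for *Acaa2*, 0.23 for *Acadm* and *Hadha*, 0.30 for *Etfdh*, 0.33 for *Hadhb*, 0.35 for *Cpt2*, 0.39 for *Cpt1a* and 0.53 for *Slc25a20*, and its median over all tested genes was 0.28. The 4 genes without overlap were among the 5 of the 10 genes with the smallest spread.

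Reads were also followed to single transcripts. In 7 of the 10 genes one transcript held at least 88.0% of the reads in every liver, and in *Acadl* it held 100%. *Hadhb*, *Hadha* and *Etfdh* each used a pair of transcripts. In *Hadhb*, ENSMUST00000026841.14 (2033 bases, first exon 30155248 to 30155339) took 45.6%, 52.6% and 51.8% of the reads in WT and 70.5%, 72.6% and 61.1% in *Sirt7* KO livers. Every *Sirt7* KO liver was above every WT liver (exact permutation p = 0.1, the smallest possible). The other form, ENSMUST00000114786.7 (2048 bases, first exon 30155272 to 30155382), took 49.3%, 43.7% and 44.7% in WT and 27.9%, 24.2% and 35.0% in *Sirt7* KO livers. Both have 16 exons, share exons 2 to 15, and differ in the first exon and in the end of the last. The *Hadhb* shares were singled out after their values were seen. Among 3535 genes with at least 100 reads in every liver and a most used transcript of 10% to 90% on average, the genotypes did not overlap in 8.60%, in either direction. The shares are Salmon's estimates from reads that mostly fit both forms.

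In *Hadha*, ENSMUST00000026843.11 (2552 bases) took 64.4%, 71.5% and 69.9% of the reads in WT and 66.7%, 73.5% and 78.0% in *Sirt7* KO livers, and the genotypes overlapped. The annotation lists this form without a coding sequence, and the coding form ENSMUST00000156859.2 (4017 bases) took 17.3% to 31.3%. In *Etfdh* the leading transcript took 60.5%, 38.3% and 61.1% in WT and 66.0%, 44.4% and 41.9% in *Sirt7* KO livers. Its share varied from liver to liver far more than between the genotypes.

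**Figure D4:**
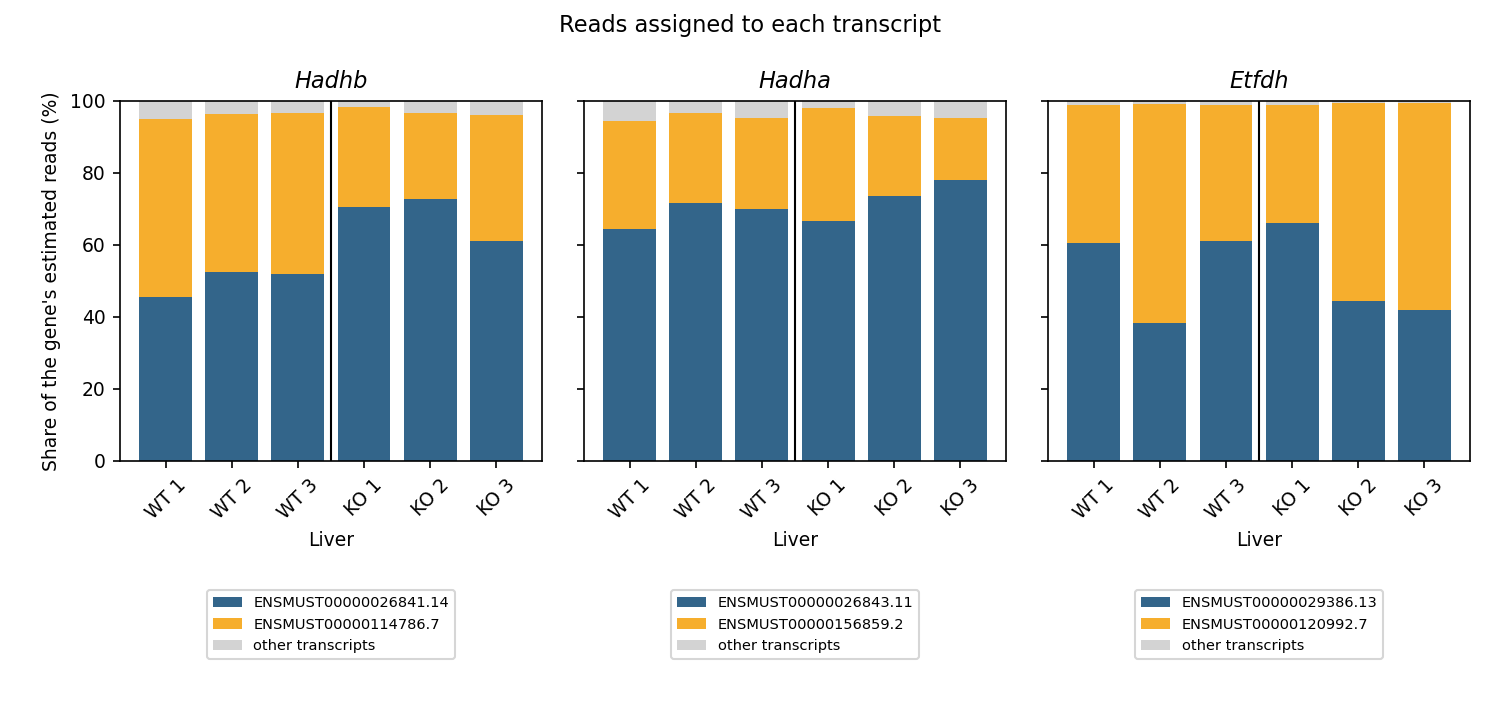
Share of the estimated reads of *Hadhb*, *Hadha* and *Etfdh* on the most used transcript (blue), the next (yellow) and all others (gray) in each liver. The blue part of *Hadhb* is 45.6% to 52.6% in WT and 61.1% to 72.6% in *Sirt7* KO livers, while those of *Hadha* and *Etfdh* overlap.

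The other genes of the pathway were then read from lists made by function. Of 62 genes listed, 59 were tested, 0 were called, and 11 were lower and 7 higher at an unadjusted p-value under 0.05. Over all tested genes, 4.78% were lower and 6.54% higher at that p-value, which is the background for each list that follows. The genes that were lower lay mostly in the list of other beta-oxidation steps and auxiliary enzymes, of which 6 of 13 were lower and 0 higher (median log2 fold change -0.41). These were the isomerases *Eci1* (-0.54) and *Eci2* (-0.56), the dienoyl-CoA reductase *Decr1* (-0.57) and the dienoyl-CoA isomerase *Ech1* (-0.72), which prepare unsaturated chains for the cycle, and the thioesterases *Acot2* (-2.42) and *Acot13* (-0.41), which split acyl-CoA. Their adjusted p-values from edgeR were 0.25 to 0.36. *Ech1* was at 731, 1060 and 716 CPM in WT and at 626, 420 and 472 CPM in *Sirt7* KO livers, and *Acot2* at 9.99, 38.5 and 16.6 and at 8.88, 2.54 and 0.58 CPM. In *Eci1* and *Decr1* *Sirt7* KO mouse 1 lay at or above the level of WT mouse 1, as it did in *Hadhb*. The partners of the matrix enzymes in the same list were not under that p-value, with *Echs1*, the short-chain hydratase, at 0.26, *Hadh*, the hydroxyacyl-CoA dehydrogenase for shorter chains, at -0.12, and the electron carriers *Etfa* and *Etfb*, which feed ETFDH, at 0.02 and -0.22.

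Of the 8 other acyl-CoA dehydrogenases, 1 was lower and 2 higher at an unadjusted p-value under 0.05 (median 0.23). *Acadsb* (0.49) and *Acad8* (0.32), which act on branched-chain amino acid products, were higher, and *Acad11* (-0.46) was lower. *Acadsb* was at 48.5, 42.2 and 51.0 CPM in WT and at 70.6, 63.9 and 64.0 CPM in *Sirt7* KO livers, so its genotypes did not overlap, on the other side from *Acadm*, *Acadl* and *Acadvl*. The short-chain enzyme *Acads* had a log2 fold change of 0.06 (adjusted p = 0.93 from edgeR). In the propionyl-CoA route 2 of 4 genes were higher, *Pcca* (0.42) and *Mut* (0.41), and 0 were lower. Among 11 genes of fatty acid uptake and activation, 0 were lower and 2 higher, the acyl-CoA synthetases *Acsl4* (0.79) and *Acsl5* (0.62). Of 7 tested genes of carnitine supply, 1 was lower, the carnitine acetyltransferase *Crat* (-1.24), with 91.1, 213 and 147 CPM in WT and 125, 35.8 and 30.3 CPM in *Sirt7* KO livers, where mouse 1 again lay among the WT livers.

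**Figure D5:**
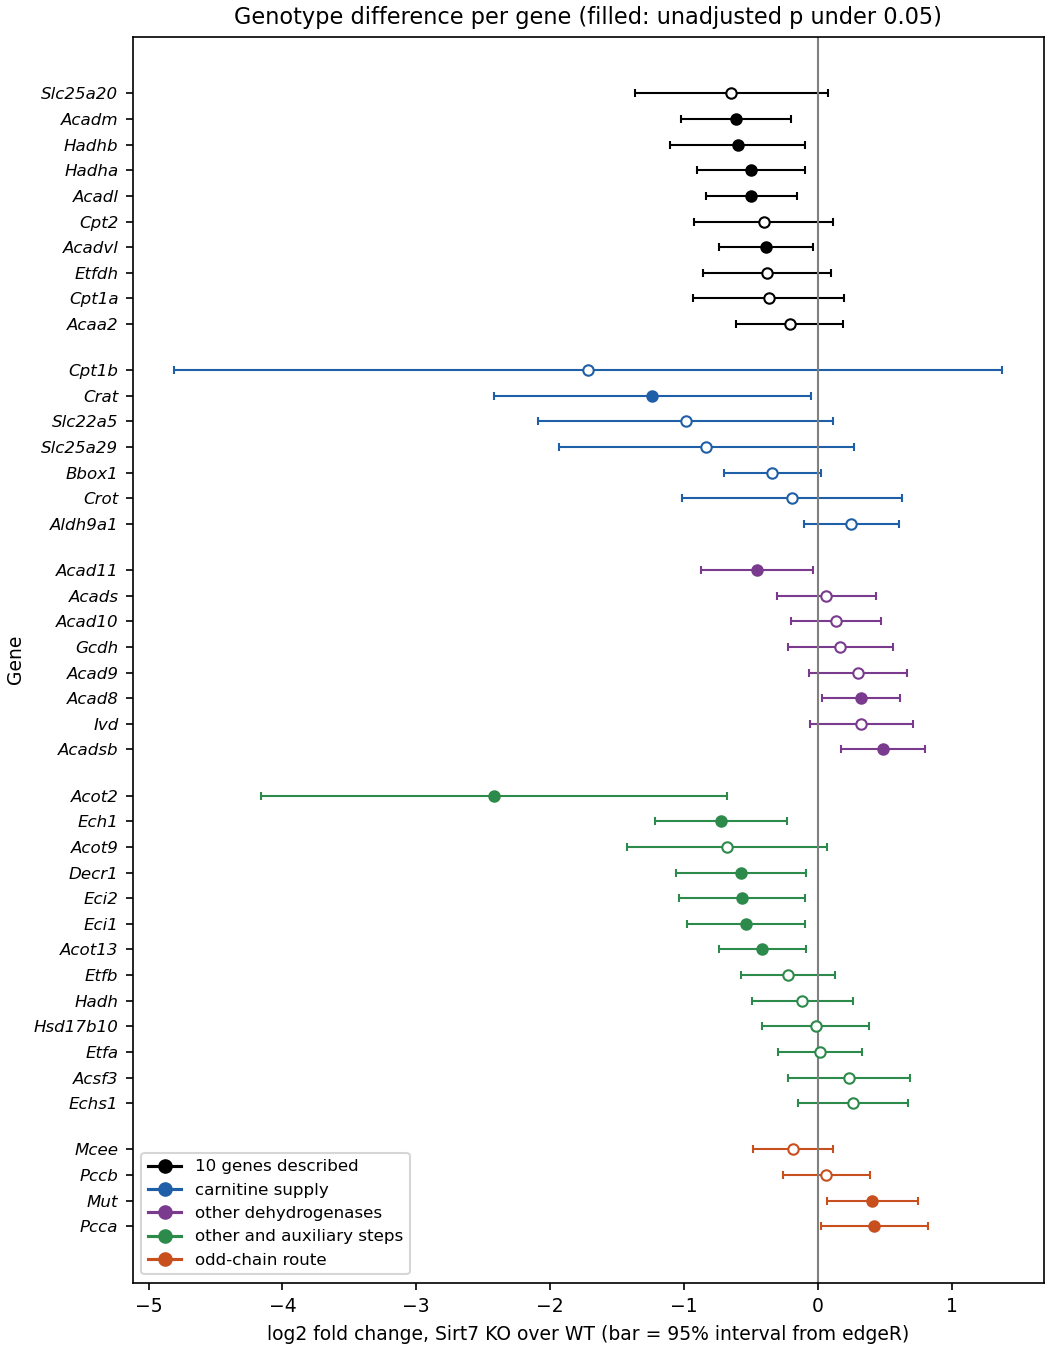
Log2 fold change (*Sirt7* KO over WT) with its 95% interval from edgeR for the 10 genes (black) and for 4 lists of the pathway, with filled points at an unadjusted p-value under 0.05 and open points above it. The 10 black points lie between -0.64 and -0.21, and the filled points of *Acadsb* and *Acad8* (purple) lie above 0.

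Among 16 regulators, 3 were lower and 1 higher at an unadjusted p-value under 0.05 (4.78% and 6.54% over all tested genes), and none was called. *Ppara*, which encodes PPARalpha, was at 100.1, 163 and 150.4 CPM in WT and at 117, 83.0 and 77.4 CPM in *Sirt7* KO livers. As in the shuttle genes, WT mouse 2 was the highest liver and *Sirt7* KO mouse 1 lay above WT mouse 1. Its log2 fold change was -0.57 (adjusted p = 0.38 from edgeR). Its partner *Rxra* was at 129, 129 and 127 CPM in WT and at 100.2, 93.5 and 99.3 CPM in *Sirt7* KO livers, with no overlap and a log2 fold change of -0.40 (adjusted p = 0.28 from edgeR), and the corepressor gene *Ncor1* had -0.48. *Acacb*, which encodes the acetyl-CoA carboxylase whose product malonyl-CoA inhibits CPT1A, was higher, at 15.4, 19.1 and 15.8 CPM in WT and at 21.6, 44.1 and 31.02 CPM in *Sirt7* KO livers. The genotypes did not overlap in *Acacb*, and its log2 fold change was 0.94 (adjusted p = 0.21 from edgeR). The coactivator gene *Ppargc1a* was at 12.4, 9.25 and 10.5 CPM and at 4.12, 11.3 and 9.25 CPM (log2 fold change -0.39, adjusted p = 0.72 from edgeR).

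Neighbouring pathways were set beside these values, with no test between lists. Of 26 subunits of the respiratory chain, the next station for the electrons, 0 were lower and 0 higher at an unadjusted p-value under 0.05, with log2 fold changes from -0.28 to 0.31 and a median of -0.01, and the smallest p was that of *Sdhb* (0.31, adjusted p = 0.55 from edgeR). Of 12 genes of peroxisomal beta-oxidation, 5 were lower (*Ehhadh*, *Acaa1a*, *Acaa1b*, *Abcd2* and *Pex11a*) and 1 higher (*Amacr*), with a median of -0.39. The shares over all tested genes were 4.78% lower and 6.54% higher. *Ehhadh*, the bifunctional enzyme of peroxisomes, was at 508, 2015 and 747 CPM in WT and at 646, 220 and 234 CPM in *Sirt7* KO livers (log2 fold change -1.57, adjusted p = 0.34 from edgeR). In *Ehhadh*, as in all 10 genes of mitochondrial oxidation, WT mouse 2 was the highest of the 6 livers and *Sirt7* KO mouse 2 lay below every WT liver. This ranking, too, was not counted over all tested genes.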

How the data were processed

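Liver RNA of 3 WT and 3 *Sirt7* KO mice was analyzed. The authors trimmed reads with Trim Galore (version 0.6.5) and quantified them with Salmon (version 1.2.1) on the GRCm38 transcriptome, and the annotation release is not given in the sources used here. They deposited an estimated count of reads per transcript, not normalized, and TPM, which the authors' Salmon run scales by transcript length and library. Replicates were not pooled.

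Estimated counts were summed to GENCODE M21 genes and rounded. Of 140992 transcripts, 1201 lacked a gene in it and were dropped (0.303% to 0.492% of reads). Genes passing edgeR's filterByExpr (minimum count 10) were tested with edgeR 4.0.16 (R 4.3.3, quasi-likelihood, TMM, Benjamini-Hochberg adjustment over 12524 genes), with no covariate and no pairing. The biological coefficient of variation was 26.4%. Scripts were tested on simulated data. DESeq2 1.42.0, other normalizations and filters, length offsets, a replicate block and leaving out each mouse were alternatives. Promoter motifs and shared words were counted with Python 3.11.15.

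The 10 genes, the gene lists and the tests were chosen with earlier results of these data known, so no list is independent evidence. The text names the 10 genes, *Sirt7*, in each list the genes with an unadjusted p-value under 0.05 or else the smallest p, and *Ppara*, *Ppargc1a*, *Acacb* and *Ehhadh*. Some genes under this rule are not reported here. *Echs1*, *Hadh*, *Etfa*, *Etfb* and *Acads* fall outside this rule and were added as neighbours in the cycle after their values were seen. Depth of 9994860 to 13424776 reads gave each of the 10 genes at least 910 reads in every liver. Statements on depth cover counting error only.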

Additional observations from a re-analysis of the deposited data

How the results depend on the processing

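All 10 genes stayed below 0 in each of 150 values under alternative settings, and 148 kept their side of the call. The exceptions were *Slc25a20* with no filter on low counts and *Hadha* in DESeq2 with length offsets, each of which made 1 of the 10 genes called. The number of genes called among all genes moved from 1 to 2 with total count scaling, to 2 with a length offset in edgeR, to 633 with no filter, to 256 in DESeq2 and to 245 in DESeq2 with length offsets, and to 0 to 252 with a mouse left out (252 without *Sirt7* KO mouse 1). Fewer samples or other genes enter some of these fits, and the cause of the other moves was not tested.

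At an unadjusted p-value under 0.05 stood 5 of the 10 genes. The number was 8 with total count scaling, which shifts the median of all tested genes to -0.11, so that the median of the 10 genes was -0.43 relative to it. With a mouse left out it was 2 to 8, and that of the pathway genes, 18 in all, was 8 to 31. The median log2 fold change of the 10 genes then ran from -0.59 to -0.31.

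Mice of the same number are different animals, and deviations of same-numbered livers correlated at 0.07, 0.08 and -0.04. The sources used here give the numbers no further meaning. Whether same-numbered samples were handled together cannot be told from these values. With the replicate block, 41 genes were called, 0 of the 10 among them, and 4 of the 10 stood at an unadjusted p-value under 0.05. Not every liver correlated best with its own number.

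With 3 mice a group, the 95% intervals of *Cpt1a*, *Cpt2*, *Slc25a20*, *Acaa2* and *Etfdh* include 0. The reads behind each gene do not limit these values, since the spread between mice exceeds counting error.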
